A study of Homo sapiens with 4 samples.

Results

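The genes described here are 10 direct targets of the transcription factor p53 that act in DNA repair, metabolism and secretion: XPC, DDB2, POLH and RRM2B, then FDXR, TIGAR, TRIAP1 and CMBL, and the secreted factors GDF15 and LIF. They were chosen by name, and every probe of the beadchip whose platform gene was 1 of the 10 was taken. Of the 10 genes, 9 had a probe with 11 probes in all, and 8 genes were detected on at least 1 array, against 10077 genes so measured over the whole beadchip. FDXR, the mitochondrial ferredoxin reductase, had no probe named here, and CMBL, a cytosolic hydrolase, was detected on none of the 4 arrays.

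Gene expression of MelJuSo cells, an established line from a human skin melanoma, was measured with 1 Illumina beadchip for each of 4 groups. The groups were cells given doxorubicin at 9 µM, cells given aclarubicin at 10 µM, cells given both 10 µM etoposide and 10 µM aclarubicin, and untreated cells. In the treated groups exposure to each drug lasted 2 h, with no order labelled for the pair, and RNA was taken 1 day after the drug was washed out, whereas no times are labelled for untreated cells. Doxorubicin and aclarubicin are anthracyclines and etoposide is not, and both doxorubicin and etoposide stabilise topoisomerase II in its DNA-cleaving state, while aclarubicin prevents the enzyme from binding DNA. Each group being a single array, nothing was replicated or tested and no p-value is given, so each difference below compares single arrays of 1 cell line, and the untreated array is shared by 3 of the comparisons.

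When DNA is damaged, p53 is stabilised and binds paired decamer motifs near its target genes, of which the cell cycle inhibitor gene CDKN1A is the best known. The genes described here are the arm of that programme that repairs lesions, supplies nucleotides, adjusts metabolism and signals to other cells. XPC and DDB2 recognise lesions for nucleotide excision repair, POLH encodes polymerase eta, which copies past damaged bases, and RRM2B encodes the p53-induced small subunit of ribonucleotide reductase. TIGAR lowers fructose 2,6-bisphosphate and so diverts glucose from glycolysis, TRIAP1 works with PRELI proteins in lipid transfer inside mitochondria, GDF15 is a stress hormone of the TGF-beta superfamily, and LIF is a cytokine of the IL-6 family.

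Promoter windows, from 250 bases before to 50 bases after a gene's start, were available for XPC, DDB2, POLH, TIGAR, TRIAP1, FDXR and GDF15 (RefSeq, GRCh38.p14). Each was searched for a pair of p53 decamers, the consensus p53 response element, with 0 to 13 bases between them. That consensus is its own reverse complement, so the search covers both strands. Of 35116 windows, 10 held a pair with no mismatch (0.0285%), 39.1% held a pair with at most 3 mismatches over the 20 bases, and 84.2% a pair with at most 4. The best pairs of DDB2, XPC and GDF15 are shown because these genes differed after doxorubicin below and because their windows held the closest matches among the measured genes. Capitals mark bases that match the consensus, 5′ to 3′ on the gene's strand.
DDB2: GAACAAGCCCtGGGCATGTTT
XPC: GAAtTTGCCCAGACAAGCaa
GDF15: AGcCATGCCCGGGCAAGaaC
The DDB2 pair lies at chr11:47214979-47214999 on the plus strand, starting at base 6 of the transcript from 1 of its 2 annotated starts, and has 0 mismatches with 1 base between the decamers. The XPC pair, at chr3:14178570-14178589 on the minus strand, and the GDF15 pair, at chr19:18386186-18386205 on the plus strand, have 3 mismatches each and no base between. The better of 2 FDXR windows had 2 mismatches, the best pairs of TIGAR, TRIAP1 and the window at the other DDB2 start had 4 mismatches and that of POLH 5. Pairs with 4 mismatches are common to most windows. In the 250 bases upstream, GDF15 was the only gene of the 7 with the motif TATAAA, the core of a TATA box, which 10.7% of all windows hold on either strand. The GC box GGGCGG was in 42.6% of all windows, either strand, and GDF15 had 2. The upstream bases of GDF15, chr19:18385908-18386157 on the plus strand, are shown for these motifs, with the TATA box and the GC boxes of both strands in capitals, none of which overlap.
GDF15 upstream: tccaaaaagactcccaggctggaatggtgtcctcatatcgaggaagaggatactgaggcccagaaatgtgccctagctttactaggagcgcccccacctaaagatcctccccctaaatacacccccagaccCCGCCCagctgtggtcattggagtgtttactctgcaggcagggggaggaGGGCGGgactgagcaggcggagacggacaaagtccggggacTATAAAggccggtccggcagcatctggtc

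The arrays differed in how much they detected, which bears on every value below. Probes with a detection p-value under 0.01 numbered 14773 after doxorubicin, 9864 after aclarubicin, 9128 after the combination and 13521 in untreated cells, of 48803. Values were compared as log2 levels after background correction and quantile normalization, which gives each array the same distribution, and 2-fold, a log2 difference of 1, was used as a rule of size. Without scaling between arrays the median gene differed from untreated by 0.06 after doxorubicin, -0.86 after aclarubicin and -1.13 after the combination. The only error available is technical, from 1066 genes with 2 probes that were both detected throughout. The SD of the gap between the log2 differences of such probes was divided by the square root of 2, giving a value for 1 probe. This probe disagreement was 0.32 for doxorubicin against untreated, 0.45 for aclarubicin and 0.50 for the combination. Of 10 melanocyte markers, 6 were detected after doxorubicin, 5 after aclarubicin, 5 after the combination and 6 in untreated cells, SOX10, PMEL and TYRP1 on each array. Summed over the melanocyte markers detected on at least 1 array, levels were 1918 after doxorubicin, 4330 after aclarubicin, 4068 after the combination and 3827 in untreated cells. Of 4 leukocyte markers with a probe, only CD14 was detected on any array. The level of CD14 was 35.3 after doxorubicin, 499 after aclarubicin, 526 after the combination and 27.1 in untreated cells. CD14 was detected on the 3 treated arrays and not in untreated cells, while PTPRC, which defines leukocytes, was not detected. Of 3 endothelial markers, PECAM1 was detected on each array and VWF after doxorubicin alone. The summed levels of PECAM1 and VWF were 173 after doxorubicin, 106 after aclarubicin, 136 after the combination and 67.2 in untreated cells. Of 6 fibroblast markers, PDGFRB alone was detected after doxorubicin and LUM alone on each other array. The summed levels of PDGFRB and LUM were 69.1 after doxorubicin, 142 after aclarubicin, 167 after the combination and 74.0 in untreated cells. Of 5 keratinocyte and epithelial markers only KRT10 was detected, on each array, at 304 after doxorubicin, 234 after aclarubicin, 350 after the combination and 427 in untreated cells. The part of any of these in the results below was not tested. In RNA of whole cultures, fewer cells with a transcript and less of it per cell cannot be told apart.

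**Figure D1:**
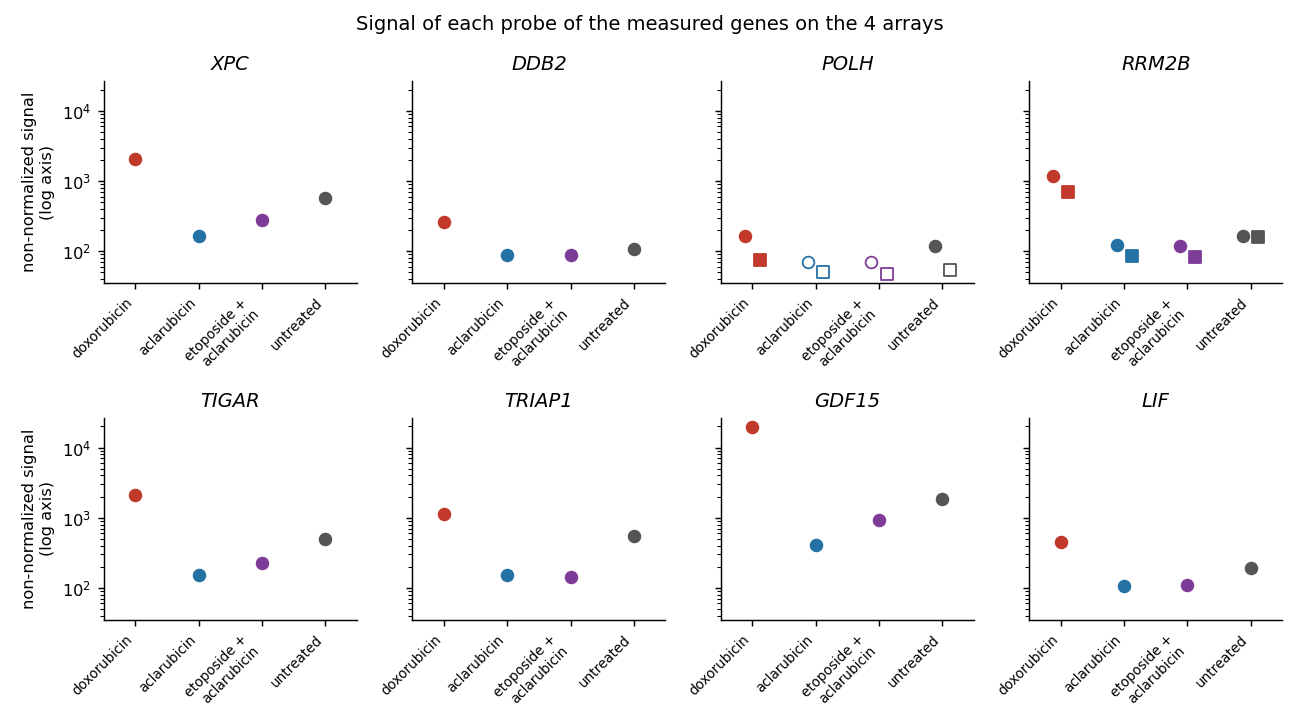
Non-normalized signal on a log axis of each probe of the 8 measured genes on the 4 arrays, filled where the detection p-value was under 0.01 and open where it was not; squares are the other probe of POLH and RRM2B. Every probe was highest after doxorubicin, from 75.4 for the dimmer POLH probe to 19686.5 for GDF15.

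After doxorubicin, 7 of the 8 measured genes exceeded their untreated level by 2-fold or more and 0 were lower, where 11.7% of 9986 genes over the beadchip were that much higher and 10.3% lower. The median log2 difference of the 8 genes was 1.80, against -0.003 over all genes. The genes are established p53 targets, named with earlier results of these arrays known, so the count is a description. GDF15 differed most, 15.999-fold, followed by RRM2B, TIGAR and XPC, and POLH was the 1 gene under 2-fold.

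Among the repair genes, XPC had a signal of 2065 after doxorubicin, 164 after aclarubicin, 281 after the combination and 575 in untreated cells. The doxorubicin array was thus the highest and the aclarubicin array the lowest. After normalization XPC was 4.75-fold higher after doxorubicin than in untreated cells, a log2 difference of 2.25, and 297 of 9986 genes exceeded that difference. XPC is the subunit that first binds distorted DNA in the genome-wide branch of excision repair, and its signal was detected on all 4 arrays.

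DDB2, which finds ultraviolet lesions with DDB1 and hands them to XPC, gave a dimmer signal. It was 259 after doxorubicin, 89.6 after aclarubicin, 88.4 after the combination and 109 in untreated cells, so the aclarubicin, combination and untreated arrays lay close together near the lower limit of detection. DDB2 was 2.46-fold higher after doxorubicin (log2 1.30). That call was lost without background correction (0.99) and with an offset of 50 (0.96), which damp the differences of dim probes. DDB2, MCC and DYNC2H1 were the 3 measured genes among the 10 whose windows hold an exact p53 pair, a set picked out after their values were seen, and MCC differed by -0.22 after doxorubicin and DYNC2H1 by -1.56.

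POLH was read by a pair of probes. The brighter gave 163 after doxorubicin, 69.3 after aclarubicin, 70.3 after the combination and 118 in untreated cells, and was not detected after aclarubicin or the combination. The dimmer gave 75.4 after doxorubicin, 50.9 after aclarubicin, 47.4 after the combination and 54.7 in untreated cells, and was detected after doxorubicin alone. POLH differed by 0.36 between doxorubicin and untreated cells on the brighter probe, 1.29-fold and close to the probe disagreement of 0.32. Its dimmer probe was not above background in untreated cells and gives no fold.

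RRM2B, whose product pairs with the large subunit RRM1 to make deoxynucleotides outside S phase, was also read by a pair of probes. The brighter gave 1191 after doxorubicin, 123 after aclarubicin, 118 after the combination and 165 in untreated cells, and the other 702 after doxorubicin, 86.4 after aclarubicin, 82.0 after the combination and 159 in untreated cells. The doxorubicin array was the highest on both probes. On the second probe the untreated signal was 1.84 times that after aclarubicin and 1.93 times that after the combination, so the other 3 arrays lay closer together on the brighter probe. The log2 difference from untreated was 3.23 on the brighter probe, 9.40-fold, and 2.38 on the other. These values lay farther apart than the typical disagreement of probes, and both passed 2-fold.

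The metabolic genes with a value were TIGAR and TRIAP1. TIGAR had a signal of 2120.15 after doxorubicin, 150.4 after aclarubicin, 228 after the combination and 497 in untreated cells. Its order over the arrays was that of XPC, with doxorubicin highest and aclarubicin lowest. TIGAR was 5.89-fold higher after doxorubicin than in untreated cells (log2 2.56), and 210 of 9986 genes exceeded it. TRIAP1 had a signal of 1142 after doxorubicin, 151 after aclarubicin, 141 after the combination and 547 in untreated cells, and was 2.39-fold higher after doxorubicin (log2 1.25). In TRIAP1 the aclarubicin and combination arrays were nearly level and both below untreated cells. CMBL gave 45.6 after doxorubicin, 44.9 after aclarubicin, 42.9 after the combination and 45.6 in untreated cells, not above background on any array, so it has no fold here.

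GDF15, the secreted factor that acts on the brainstem receptor GFRAL, had the largest differences among the genes described here in each comparison but that of the combination with untreated cells. Its signal was 19686.5 after doxorubicin, 406 after aclarubicin, 920.3 after the combination and 1876 in untreated cells. Doxorubicin was far above the other arrays and aclarubicin lowest. The normalized log2 levels were 14.61 after doxorubicin, 9.01 after aclarubicin, 10.28 after the combination and 10.61 in untreated cells. GDF15 was 15.999-fold higher after doxorubicin than in untreated cells (log2 3.9999, or 3.41 without scaling between arrays), and 33 of 9986 genes exceeded it. LIF, which signals through the LIF receptor and gp130, had a signal of 451 after doxorubicin, 106 after aclarubicin, 108 after the combination and 189 in untreated cells. It was 2.54-fold higher after doxorubicin (log2 1.34).

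**Figure D2:**
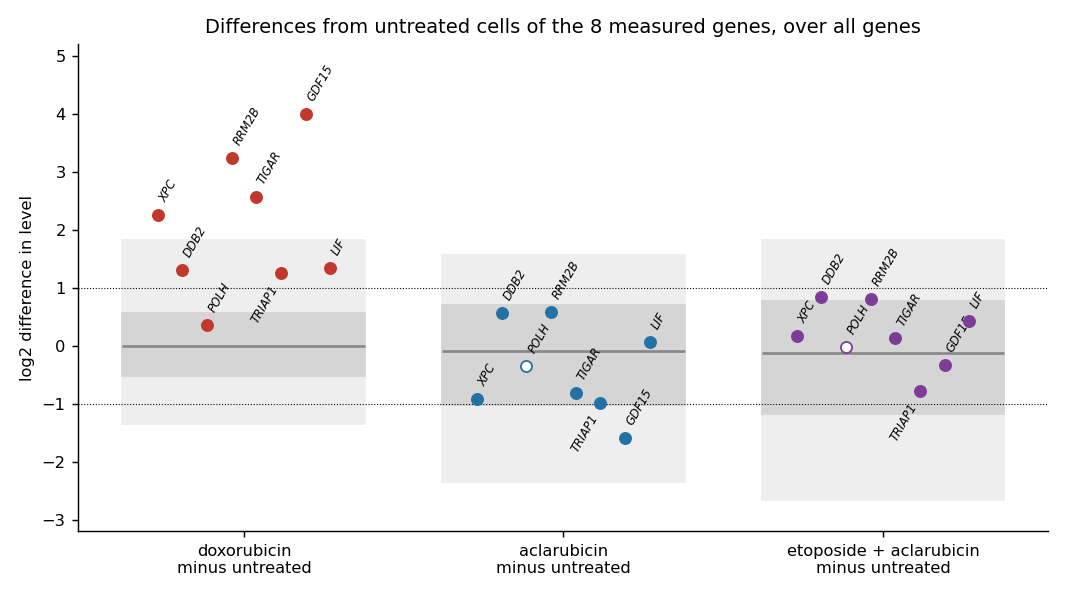
Log2 differences in level from untreated cells for the 8 measured genes, 1 point a gene, filled where both arrays detected it and open where untreated cells alone did. The dark band holds the middle 50% of all genes, the pale band the 5th to 95th percentile and the grey line their median; dotted lines mark 2-fold. After doxorubicin 7 of 8 genes lie above the upper dotted line, and after the combination none lies beyond either line.

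Aclarubicin gave another picture. Of the 8 genes, 0 exceeded their untreated level by 2-fold or more and 1 was lower, where 16.9% of 8987 genes over the beadchip were higher and 17.0% lower, so neither count stood above the background. The median log2 difference of the 8 genes was -0.58, or -0.41 with POLH at its bound, against -0.09 over all genes. GDF15 was the lower one, 3.02-fold (log2 -1.60). TRIAP1 differed by -0.98, XPC by -0.92 and TIGAR by -0.81, all under 2-fold. RRM2B differed by 0.58 on its brighter probe and -0.15 on the other, DDB2 by 0.57 and LIF by 0.07. POLH was not detected after aclarubicin, and its bound gives no fold.

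How far these genes lay below untreated cells followed the scaling. Without scaling between arrays the median gene was itself at -0.86 after aclarubicin. The share of all genes at least 2-fold lower was not counted under that scaling. Of the genes described here, 5 were then at least 2-fold lower after aclarubicin: GDF15 at -2.30, TRIAP1 at -2.11, XPC at -2.04, TIGAR at -1.96 and LIF at -1.07. DDB2 then differed by -0.41 and RRM2B by -0.55, the other sign from that after quantile normalization, beside a median gene at -0.86, and both were also below 0 under median scaling over all probes. LIF was below untreated cells under each of the 5 other scalings, by little under cyclic loess (-0.07) and by more under median scaling over the probes detected on every array (-0.20), a scaling added once the data had been seen. GDF15, TRIAP1, XPC and TIGAR were below untreated cells under every scaling and background setting tried, at -1.43, -0.87, -0.83 and -0.72 where they were nearest to it.

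After etoposide plus aclarubicin, 0 of the 8 genes passed 2-fold upwards and 0 downwards, where 19.2% of 9002 genes were higher and 17.1% lower. The median log2 difference was 0.15 (-0.13 over all genes). DDB2 differed by 0.85, RRM2B by 0.80 on its brighter probe and 0.02 on the other, LIF by 0.42, XPC by 0.17 and TIGAR by 0.13, against GDF15 at -0.33 and TRIAP1 at -0.78. POLH was not detected and has no fold. Without scaling the median was -1.09 and 5 genes were at least 2-fold lower, TRIAP1 at -2.23, TIGAR at -1.24, XPC at -1.12, GDF15 at -1.05 and LIF at -1.03. DDB2 at -0.44 and RRM2B at -0.62 then also lay below untreated cells, while the median gene lay at -1.13. The small differences of XPC and TIGAR also turned below 0 under cyclic loess (-0.09 and -0.16), and GDF15 turned to 0.16 under median scaling over the probes detected on every array.

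**Figure D3:**
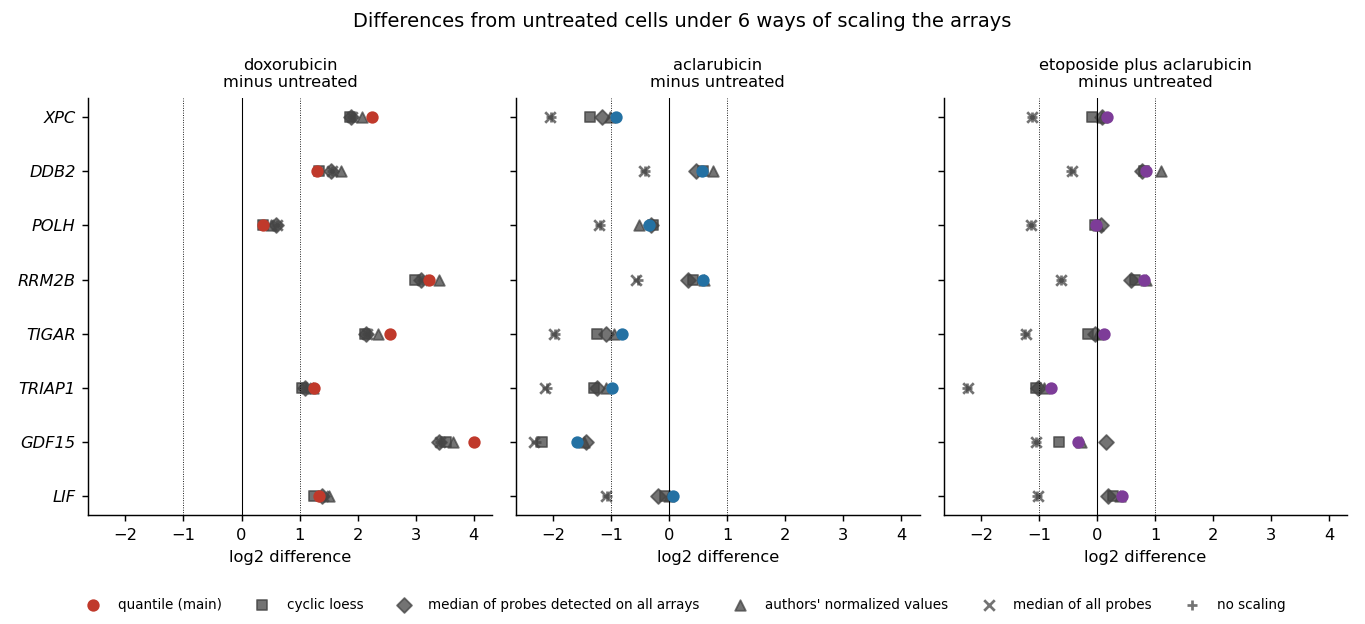
Log2 differences from untreated cells (horizontal axis) of the 8 measured genes (rows) in 3 panels, 1 for each treatment, each gene shown under 6 ways of scaling the arrays, the main one coloured. Each point after doxorubicin lies right of 0, whereas after aclarubicin and the combination the points without scaling lie left of 0 for every gene and others spread to both sides.

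Etoposide plus aclarubicin was set against aclarubicin alone at the same aclarubicin dose, so that the treatment labels differ by etoposide. The cultures and arrays were also separate, and the order of the pair is not labelled. These 2 arrays were alike in depth, and 0.466% of 6869 genes were higher by 2-fold or more and 0.917% lower. Of the 7 genes described here that were detected on both, 2 passed 2-fold upwards and 0 downwards. The median was 0.36, against 0.006 over all genes. GDF15 was 2.41-fold higher after the combination than after aclarubicin alone (log2 1.27, with 22 genes of 6869 above it), and XPC 2.13-fold higher (1.09). TIGAR, at 0.94, lay just under 2-fold. LIF differed by 0.36, DDB2 by 0.28, RRM2B by 0.23 and TRIAP1 by 0.20, beside a probe disagreement of 0.17 for this comparison. In the signals themselves GDF15 was 2.27 times, XPC 1.72 times and TIGAR 1.52 times as high after the combination, while RRM2B was 0.960 times, DDB2 0.986 times, TRIAP1 0.935 times and LIF 1.02 times as high. The call for XPC was lost without scaling (0.91), under median scaling over all probes (0.95), without background correction (0.99) and with an offset of 50 (0.98). DDB2, RRM2B and TRIAP1 turned to -0.03, -0.08 and -0.12 without scaling, and RRM2B and TRIAP1 to -0.04 and -0.09 under median scaling over all probes. The median over all genes was then -0.28 without scaling and -0.24 under median scaling over all probes.

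Doxorubicin and aclarubicin differ, among other parts of the molecule, in the sugar, which in doxorubicin is daunosamine alone and in aclarubicin is a longer sugar chain starting with a dimethylated amino sugar. Their doses were 9 and 10 µM, close but not equal, so the values stand side by side as arrays rather than as a matched test. GDF15 had a log2 level of 14.61 after doxorubicin and 9.01 after aclarubicin, a 48.3-fold difference, exceeded by 12 of 9797 genes. TIGAR was 10.4-fold, XPC 9.01-fold, RRM2B 6.30-fold, TRIAP1 4.71-fold and LIF 2.42-fold higher after doxorubicin than after aclarubicin. These 6 of 8 genes passed 2-fold and 0 were lower, where 18.1% of all genes were higher and 18.6% lower. DDB2 differed by 0.73 and POLH, not detected after aclarubicin, was at least 1.12-fold higher. The median of the 8 was 2.45 (0.26 over all genes), beside a probe disagreement of 0.56. Without scaling, and under median scaling over all probes, all 8 genes passed 2-fold. The median over all genes was itself 1.02 without scaling and 1.05 under median scaling over all probes. DDB2 then differed by 1.96 without scaling and LIF by 2.48, and under median scaling over the probes detected on every array 7 genes passed.

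The partners of the repair genes gave other values after doxorubicin. Of 26 measured genes of nucleotide excision repair besides XPC and DDB2, 0 were higher by the 2-fold rule and 3 lower (1 without scaling), with a median of -0.05. ERCC5, the nuclease that cuts on one side of the lesion, differed by 0.83 and RPA1, of the single-strand binding complex, by 0.66, against GTF2H3 at -1.21 and MNAT1 at -1.06, both of the TFIIH complex. Of 8 measured genes of translesion synthesis, 2 were higher and 0 lower (median 0.40): PCNA, the clamp that holds polymerases on DNA, by 1.38 and MAD2L2, a subunit of polymerase zeta, by 1.17, with PRIMPOL at -0.17, or 0.01 without scaling, and REV3L at -0.72. MAD2L2 did not reach 2-fold without scaling (0.84), and PCNA was between 0.98 and 1.38 over the settings. Of 12 measured genes of deoxynucleotide supply, 1 was higher and 2 lower (median -0.30). RRM2, the S phase counterpart of RRM2B, differed by -1.69 and DUT, the dUTPase, by -1.93, while TK1 differed by 1.16, or 0.84 without scaling, and RRM1 by 0.88. After doxorubicin the 2 small subunits of ribonucleotide reductase thus lay on opposite sides of untreated cells, under each scaling tried.

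List counts here and below stand beside shares over all genes of 16.9% higher and 17.0% lower after aclarubicin. After the combination these shares were 19.2% and 17.1%. Without scaling the median gene lay at -0.86 after aclarubicin and -1.13 after the combination, and the shares were not counted. After aclarubicin, excision repair genes had 2 of 25 higher and 1 lower (median -0.17, or 0.00 with genes detected on 1 array at their bound), CETN2 at 1.22 and ERCC2 at 1.07, and CDK7, of TFIIH, at least 5.28-fold lower and GTF2H2 not detected. After the combination they had 2 higher and 3 lower (median -0.28, or 0.00 at the bounds), ERCC2 at 1.38, CETN2 at 1.34 and CDK7 at least 4.42-fold lower. Without scaling they had 1 higher and 9 lower after aclarubicin and 0 higher and 11 lower after the combination. Translesion genes had 0 of 8 higher and 3 lower after aclarubicin (median -1.72, or -0.24 at the bounds), and 0 higher and 2 lower after the combination (median -1.83, or -0.38 at the bounds). Without scaling 5 translesion genes were lower after aclarubicin and 6 after the combination. PCNA was at -2.96 after aclarubicin and -2.36 after the combination, and USP1, which deubiquitinates PCNA, at -2.50 after aclarubicin and -2.24 after the combination. MAD2L2 was at 0.50 after aclarubicin and 0.46 after the combination, and UBE2A at 0.31 after aclarubicin and 0.58 after the combination, or below 0 under some scalings. Deoxynucleotide genes had 1 of 11 higher and 0 lower after aclarubicin (median 0.40) and the same counts after the combination (median 0.28). DUT was at 1.09 after aclarubicin and 1.03 after the combination, CMPK1 at 0.95 after aclarubicin and 0.99 after the combination, and DCK at -0.35 after aclarubicin and -0.64 after the combination. RRM1 was at -0.33 after aclarubicin and DTYMK at -0.23 after the combination, and these turned to 0.85 for RRM1 and 0.56 for DTYMK under median scaling over the probes detected on every array. That scaling gave 7 deoxynucleotide genes higher after aclarubicin and 8 after the combination, whereas without scaling 0 were higher and 1 lower in each.

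**Figure D4:**
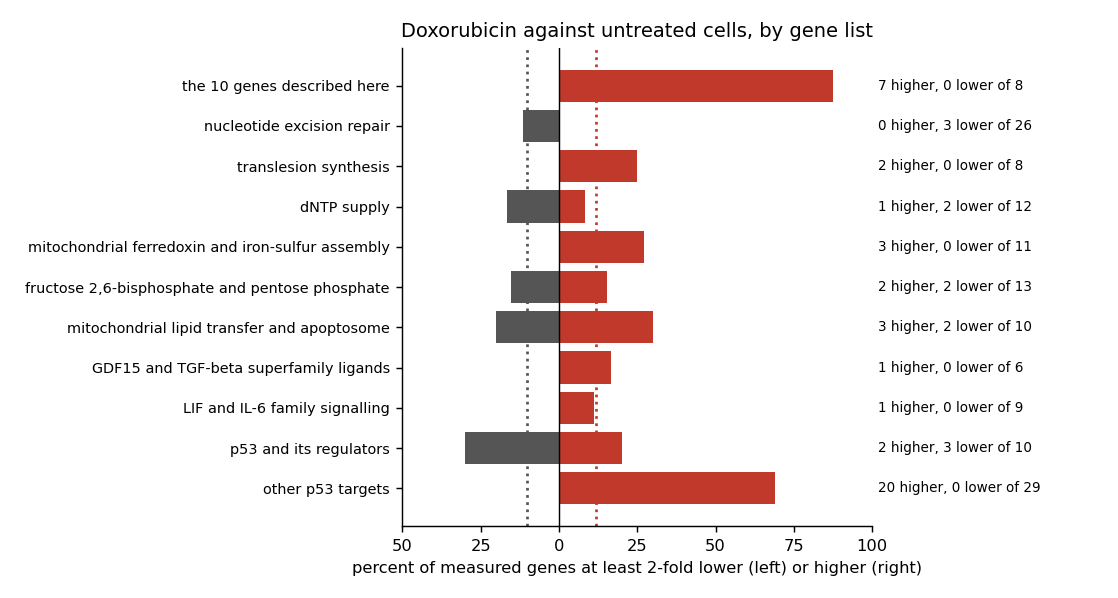
Percent of the measured genes of each list that were at least 2-fold higher (red, right) or lower (grey, left) after doxorubicin than in untreated cells, with the shares over all genes, 11.7% and 10.3%, as dotted lines. The genes described here (7 of 8 higher) and other p53 targets (20 of 29) reach farthest right.

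Around the metabolic genes, 3 of 11 measured genes of ferredoxin and iron-sulfur assembly were higher after doxorubicin and 0 lower (median 0.36, or 0.13 at the bounds). ISCU, the scaffold on which iron-sulfur clusters are built, differed by 2.26 and FDX2, a ferredoxin that receives electrons from FDXR, by 1.79, with GLRX5 at -0.69 and NFS1 no longer detected. After aclarubicin 2 of 11 were higher and 2 lower (median 0.15), LYRM4 at least 2.37-fold higher and CYP27A1 at 1.06 against ISCA1 at -1.08, with ISCA2 at least 1.91-fold lower. After the combination 3 of 10 were higher and 0 lower (median 0.16), with ISCU at 1.27 and NFS1 at 1.17 and with ISCA2 at least 1.60-fold and ISCA1 at least 1.92-fold lower. Without scaling 0 were higher and 3 lower after aclarubicin (median -0.40), and 0 higher and 5 lower after the combination (median -0.82).

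Genes of fructose 2,6-bisphosphate and the pentose phosphate path had 2 of 13 higher and 2 lower after doxorubicin (median -0.08). PFKFB4, a kinase that makes the molecule TIGAR breaks down, differed by 3.02, and PGD by 1.23, or 0.95 without scaling, against HK2 at -1.62 and PFKM at -1.43. PFKFB4 had log2 levels of 11.82 after doxorubicin, 7.08 after aclarubicin, 6.86 after the combination and 8.80 in untreated cells. Like TIGAR it was highest after doxorubicin, but it was lowest after the combination. After aclarubicin the list had 3 of 12 higher and 3 lower (median 0.63), PFKL at 1.90 and PGLS at 1.58 against PFKFB4 at -1.73 and PFKFB3 at -1.66. After the combination it also had 3 higher and 3 lower (median 0.56), PFKL at 2.09 and RPIA at 1.51 against PFKFB3 at -2.33 and PFKFB4 at -1.94. Without scaling it had 0 higher and 4 lower in each.

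Genes of mitochondrial lipid transfer and the apoptosome, the partners of TRIAP1, had 3 of 10 higher and 2 lower after doxorubicin (median -0.09, or 0.15 without scaling). APAF1, the core of the apoptosome, differed by 2.56 and PISD by 1.33, against PRELID1, which carries phosphatidic acid together with TRIAP1, at -1.44 and CYCS, cytochrome c, at -1.13. TRIAP1 and PRELID1 were thus on opposite sides of untreated cells after doxorubicin. After aclarubicin 2 of 10 were higher and 2 lower (median 0.01, or 0.03 at the bounds and -0.94 without scaling), PRELID2 at 1.39 and CYCS at 1.01, or below 0 under some scalings for CYCS, against CRLS1 and APAF1, both at -1.28. After the combination 1 was higher and 1 lower (median -0.16, or 0.00 at the bounds and -1.29 without scaling), CYCS at 1.08, or below 0 under some scalings, and CRLS1 at -1.48, while PISD and PRELID2 were not detected. Without scaling 0 were higher in either, with 4 lower after aclarubicin and 5 after the combination.

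Beside the secreted factors, 1 of 6 measured TGF-beta superfamily ligands and partners of GDF15 was higher after doxorubicin and 0 lower (median 0.58, or 0.19 at the bounds), TGFB3 at 2.02. BMP7 was at least 1.05-fold higher, as untreated cells did not reach detection, BMP4 differed by 0.31 and FURIN, a protease that matures such ligands, by -0.07, or 0.11 without scaling. GFRAL and RET, the receptor pair of GDF15, were not measured here. After aclarubicin 2 of 4 were higher and 0 lower (median 0.99), BMP4 at 2.32 and GDF11 at 1.22, with TGFB3 at 0.77 and FURIN at 0.66. After the combination 3 were higher and 0 lower (median 1.29), BMP4 at 2.94, GDF11 at 1.30 and TGFB3 at 1.28, with FURIN at 0.95. Without scaling 1 was higher and 0 lower in each, the medians were 0.03 after aclarubicin and -0.01 after the combination, and under some scalings TGFB3 after aclarubicin, FURIN in both and GDF11 after the combination turned below 0.

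For LIF and the IL-6 family, 1 of 9 measured genes was higher after doxorubicin and 0 lower (median 0.13). STAT3, the factor that LIF activates, differed by 1.68, IL6, detected on the doxorubicin array only of the pair, was at least 1.24-fold higher, JAK2 differed by -0.46 and PIM1 by -0.67. The LIF receptor gene LIFR was not measured here. After aclarubicin 0 of 7 were higher and 0 lower (median 0.51, or 0.40 at the bounds and -0.22 without scaling), with IL6ST, which encodes gp130, at 0.94 and STAT3 at 0.75, both just below 0 under some scalings. PIM1 was no longer detected, at least 1.41-fold lower, and JAK2 was not detected. After the combination 2 of 8 were higher and 0 lower (median 0.66, or 0.32 at the bounds and -0.45 without scaling), with SOCS3, the feedback inhibitor of this path, at least 3.18-fold higher and JAK1 at -0.23, while JAK2 and CTF1 were not detected. Without scaling 0 were higher in either, with 1 lower after aclarubicin and 2 after the combination.

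The rest of the p53 pathway gives the setting. Of 10 measured genes that regulate p53, 2 were higher after doxorubicin and 3 lower (median -0.28): PPM1D, a phosphatase induced by p53, differed by 2.56, and MDM2, the p53 ligase, was detected on that array alone and was at least 3.01-fold higher, against HIPK2 at -1.77 and CHEK2 at -1.54. After aclarubicin 0 of 8 were higher and 2 lower (median -1.42, or -0.73 at the bounds), PPM1D at -2.11, while EP300, no longer detected, was at least 1.28-fold lower. After the combination 0 were higher and 1 lower (median -1.49, or -0.59 at the bounds), with USP7 at least 1.48-fold and EP300 at least 1.07-fold lower. Without scaling 7 of the 8 regulators were lower after aclarubicin (median -2.38) and 8 after the combination (median -2.51), and under cyclic loess 4 after aclarubicin and 5 after the combination. The median over all genes without scaling was -0.86 after aclarubicin and -1.13 after the combination. ATM was at -0.12 after aclarubicin and -0.29 after the combination, or -1.30 after aclarubicin and -1.76 after the combination without scaling, and HIPK2 at 0.87 after aclarubicin and 0.35 after the combination, or below 0 under some scalings. Of 29 other measured p53 targets, 20 were higher after doxorubicin and 0 lower (median 1.82, or 1.73 at the bounds), close to the median of 1.80 of the 8 genes described here. CDKN1A differed by 4.96, with ZMAT3 at -0.02, or 0.05 under cyclic loess, and CCNG1 at -0.30. After aclarubicin 4 of 22 were higher and 3 lower (median 0.21), or 0 higher and 6 lower without scaling (median -0.44), PMAIP1 at 1.57 and CYFIP2 at 1.24 against AEN at -1.55, with FBXW7 at least 1.75-fold lower. After the combination 8 were higher and 1 lower (median 0.86), or 2 higher and 5 lower without scaling (median -0.14), PMAIP1 at 2.33 and GADD45A at 1.60 against AEN at -1.10, with FBXW7 at least 1.47-fold lower. Over all genes the shares were 16.9% higher and 17.0% lower after aclarubicin, and 19.2% higher and 17.1% lower after the combination. CDKN1A was at 0.17 after aclarubicin and 0.87 after the combination, or below 0 under some scalings.

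The genes described here varied among themselves in how they ordered the arrays. The median profile of the 7 detected on all 4 arrays, each centred on its own mean, was compared with those of 5940 other genes detected on all 4. The nearest were TINF2, a telomere-protecting shelterin subunit, at a root mean square distance of 0.06 log2 units, TNFRSF14, a TNF receptor family member, at 0.08, CEBPB, a leucine zipper transcription factor, at 0.09, DEDD2, a death effector domain protein, at 0.10, and TRIP6, a LIM domain protein, at 0.10. TINF2 had log2 levels of 10.16 after doxorubicin, 7.49 after aclarubicin, 7.92 after the combination and 7.83 in untreated cells. The 7 genes themselves lay farther from their median profile: XPC and TIGAR at 0.24, RRM2B at 0.38, TRIAP1 at 0.42, LIF at 0.57, DDB2 at 0.78 and GDF15 at 1.05. As the nearest genes were picked from 5940 for their small distance and the 7 were not, that order was nearly fixed in advance. With 4 arrays a likeness of profiles rests on few points and is a description.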

How the data were processed

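Total RNA of 4 MelJuSo cultures was read on 1-colour Illumina beadchips, 1 array per group, and the treatment labels gave the groups. Per the file headers, the deposited intensity values (30.1 to 36890.5) are non-normalized and come with a detection p-value for each probe. The deposited normalized log2 values name lumi in the submitters' processing notes, with method and version not given in the sources used here. They equal the series' value table (largest difference 0) and served as an alternative.

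For background correction by normexp, detection p-values stood in for negative controls (limma 3.58.1, R 4.3.3, offset 16). Intensities were then quantile-normalized and taken to log2. Quantile normalization removes a shift shared by most genes. Probes of the 10 genes were matched by gene identifier, so 2 probes of another gene named PDF, an older alias of GDF15, were left out. Of 48803 probes, 27578 carried 1 gene symbol. A gene was its probe of highest mean level among those detected (p under 0.01) on at least 1 array. A gene was called at 2-fold if both arrays detected it. If 1 did, the fold is a lower bound, with the undetected side set to its own value or to the dimmest detected probe of its array, whichever was brighter, and the call used that bound. Named genes are the members, the 2 highest and 2 lowest of each of 10 lists, CDKN1A and MDM2, and the 5 nearest profiles, besides those said to be picked later, and an item that this rule would name is not reported here. Members and lists were chosen with earlier results of these data known. The number of arrays limits the precision. Calculations used Python 3.11.15 with numpy 2.4.6 and pandas 2.3.3.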

Additional observations from a re-analysis of the deposited data

How the results depend on the processing

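Alternatives were no background correction, an offset of 50, median scaling over all probes, cyclic loess, no scaling, values as the authors normalized them, a mean across a gene's probes, only genes with detection on all 4 arrays, all genes without a filter, 1.5-fold and 3-fold as thresholds and, chosen after seeing the data, median scaling over probes detected on all 4 arrays. Counts of lower genes were also added then. No paired analysis was possible because each group has 1 array. A median was taken as unmoved within the probe disagreement. For doxorubicin against untreated cells, the 7 genes at least 2-fold higher became 4 at 3-fold, and the median of 1.80 became 2.25 over genes detected on all arrays and 1.34 with no detection filter, since the set of genes differs. All 79 differences of single genes in that comparison kept their sign, as did 70 of 79 for aclarubicin, 63 of 79 for the combination, 79 of 79 for doxorubicin against aclarubicin and 65 of 70 for the combination against aclarubicin. These counts include the mean across probes, the genes detected on all arrays and the unfiltered genes, which keep the main normalization. A gene with 1 probe cannot change under those settings, so part of each count was fixed in advance. For aclarubicin against untreated cells, the 1 lower gene became 5 under median scaling over all probes and without scaling, 4 under cyclic loess, under median scaling over probes detected on all arrays and at 1.5-fold, and 3 in the authors' values. The median of -0.58 became -1.60 and -1.57 under median scaling over all probes and without scaling, beside -0.88 and -0.86 over all genes. For the combination against untreated cells, higher genes numbered 1 in the authors' values and 2 at 1.5-fold, in place of 0. Lower genes numbered 5 under median scaling over all probes and without scaling, and 1 under cyclic loess, at 1.5-fold and under median scaling over probes detected on all arrays, in place of 0. The median of 0.15 became -1.08 and -1.09 under the first and the second of these scalings, beside -1.12 and -1.13 over all genes. For doxorubicin against aclarubicin they gave medians of 3.46 and 3.44, beside 1.05 and 1.02 over all genes, and 8 higher genes in place of 6. For the combination against aclarubicin, 2 higher genes became 1 without background correction, with an offset of 50, under median scaling over all probes and without scaling, 3 under cyclic loess, at 1.5-fold and under median scaling over probes detected on all arrays, and 0 at 3-fold, and the median of 0.36 became 0.077 and 0.041 under median scaling over all probes and without scaling. Over all genes the median of 0.006 in that comparison became -0.24 under median scaling over all probes and -0.28 without scaling. The cause of these shifts was not tested. DDB2, POLH, LIF and RRM2B lie near background on some arrays, where signal limits their folds, and RRM2B after doxorubicin went to 2.86 with an offset of 50.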
